A study of Caenorhabditis elegans with 12 samples.

Results

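The response to heme that hrg-2 mutant and wildtype Caenorhabditis elegans share was described on 12 Affymetrix arrays. All animals were in the middle or late part of L4, the larval stage before adulthood. There were 3 arrays each of hrg-2 mutants grown with 20 µM heme, wildtype animals grown with 20 µM heme, hrg-2 mutants grown with 4 µM heme and wildtype animals grown with 4 µM heme. The labels name no allele, strain, medium or tissue, and whether replicate arrays stand for separate cultures is not stated, so each p-value reflects the spread between arrays, which may be technical. Each array at 20 µM was set against the array at 4 µM of the same genotype and title number. This gave 6 paired log2 differences per probe set (a group of probes for a transcript), 3 from mutants and 3 from wildtype. The shared response was taken as the probe sets whose 6 differences all had the same sign, and 1489 of the 22548 probe sets tested (6.6%) met this rule. Of these, 873 (3.87% of all) were lower at 20 µM and 616 (2.73%) were higher. With each gene taken at its probe set of highest mean, 1170 of 17138 genes met it. The annotation used pairs no probe set with hrg-2, so the genotype labels were not checked against the mutated gene.

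C. elegans lacks the enzymes that make heme and takes it up from its food, so that transporters and carrier proteins stand in for synthesis. Heme-responsive genes (hrg) act at successive steps: importers bring heme into the intestine, an exporter passes it on, and secreted proteins carry it or signal heme status between tissues. HRG-2 itself sits in membranes of the hypodermis, the epidermal layer of the worm. Several hrg genes are known for high transcript levels when heme is scarce.

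The 6 pairs were not alike across all probe sets. The paired differences correlated at r = 0.736 between mutant pairs 1 and 2 and at 0.468 between wildtype pairs 1 and 2, but mutant pair 3 correlated with mutant pairs 1 and 2 at -0.193 and -0.168, and wildtype pair 3 with wildtype pairs 1 and 2 at 0.050 and -0.028. These values are across 22548 probe sets, which are not independent, and arrays numbered 3 had sperm transcripts higher than those numbered 1 and 2 by a median of 1.67 (mutant, 20 µM), 2.05 (wildtype, 20 µM), 4.22 (mutant, 4 µM) and 2.30 (wildtype, 4 µM) log2 units over 39 measured genes. The labels do not say what the numbers stand for. The counts of calls and the gene groups described are therefore also given from the arrays numbered 1 and 2 alone, which form 4 pairs. The deposited array medians lay between 5.74 and 5.93 log2 units. With 3 arrays per group, precision is limited by their number.

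Among the 22548 probe sets, 40 (0.177%) passed limma's test on the 6 paired differences at an adjusted p under 0.05, 27 lower at 20 µM (0.12%) and 13 higher (0.0577%). All 40 had the same sign in the 6 pairs, which is not separate evidence, since the test uses the same 6 differences. The falls were the larger changes: the 27 fell by 0.975 to 5.2 log2 units with a median of 1.99, while the 13 rose by 1.12 to 2.25 with a median of 1.59. Counted over all members with or without a call, 64 were lower by more than 1 log2 unit and 86 were higher by as much, but beyond 2 units there were 14 lower and 3 higher members, and beyond 3 units 6 lower and 0 higher. The median size over members was 0.448 for those lower and 0.511 for those higher, and the median difference of all 22548 probe sets was -0.028. The 6 arrays at 20 µM and the 6 at 4 µM did not overlap for 18 of the 27 falls and 0 of the 13 rises, where 0.2% of all probe sets had such a gap with 20 µM lower and 0.0887% with 20 µM higher. At an unadjusted p under 0.05 there were 2746 probe sets, 1161 of them members. With the test restricted to arrays numbered 1 and 2, 333 probe sets passed, 200 lower and 133 higher, and they included 36 of the 40.

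Genes of heme trafficking made up 4 of the 6 probe sets that fell by more than 3 log2 units. Of the 7 measured genes on this list (10 were listed; hrg-2, hrg-5 and hrg-6 have no probe set in the annotation used), 5 fell, 0 rose, and all 7 were lower at 20 µM in all 6 pairs. Over all 17138 genes, each taken at its probe set of highest mean, 24 fell (0.14%), 12 rose (0.07%), 738 were lower in all 6 pairs (4.31%) and 432 higher (2.52%). The median difference of the list was -3.19 log2 units, against -0.04 over all genes, and it was -3.12 from arrays numbered 1 and 2, with the count of 5 kept. Several hrg genes were already known for such a response, and the list was chosen with earlier results of these data known. Its counts are therefore a description and not separate evidence. Less RNA per cell and fewer cells that express a gene cannot be told apart in these bulk samples.

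Among the importers, hrg-4, a heme permease of the intestinal plasma membrane, had log2 values of 2.80, 4.31 and 5.00 (lowest, median and highest of 6 arrays) at 20 µM and 7.69, 8.97 and 9.22 at 4 µM. Every array at 20 µM thus lay below every array at 4 µM, and the array numbered 3 was the lowest in both genotypes and at both levels. The mean paired difference was -4.54 ± 0.16 (moderated SE, 6 pairs), a 23.3-fold fall (adjusted p 2.24e-06 by limma). The other importer, hrg-1, which moves heme out of endosomal and lysosomal compartments, stood at 6.10, 7.31 and 7.67 at 20 µM and at 9.42, 10.45 and 10.72 at 4 µM. Its groups were also apart, and both genotypes gave their lowest values on the array numbered 3. It fell by 3.19 ± 0.14 log2 units, or 9.09-fold (adjusted p 9.86e-06). The probe set of hrg-1 is of a type (ending _s_at) whose probes can match more than 1 transcript, and 9 of the 40 that passed are of this type. They include those of ugt-17, dod-24, asp-14 and F15E6.4 and the brighter one of tag-10, described below.

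The exporter and both secreted proteins also fell. The transporter mrp-5, which exports heme from the intestine to other tissues, had values of 7.34, 8.23 and 8.46 at 20 µM and 9.03, 9.67 and 9.97 at 4 µM. The groups did not overlap, and the fall was the smallest of the 5, at 1.51 ± 0.14 log2 units or 2.85-fold (adjusted p 0.00223). A different probe set of mrp-5 fell by 1.62 ± 0.17 (adjusted p 0.00535). Without the pairing the adjusted p of mrp-5 was 0.0533. The secreted heme chaperone hrg-3, which carries maternal heme to embryos, showed the largest mean fall of all probe sets that passed. It had 2.38, 2.53 and 3.25 at 20 µM and 7.42, 7.92 and 8.35 at 4 µM, a fall of 5.198 ± 0.149 or 36.7-fold (adjusted p 9.97e-07). At 20 µM hrg-3 lay close to the lowest deposited values of the arrays, 1.76 to 1.92, and no detection call was at hand for that level. For hrg-7, a secreted protein of the aspartyl protease family that signals heme status from the intestine, the values were 7.88, 8.29 and 8.63 at 20 µM and 12.05, 12.42 and 12.77 at 4 µM. It fell by 4.19 ± 0.14, or 18.2-fold (adjusted p 2.24e-06), and its 6 paired differences stayed between -4.62 and -3.80. From arrays numbered 1 and 2 alone the differences of the 5 genes were -4.51 for hrg-4, -3.12 for hrg-1, -1.41 for mrp-5, -5.28 for hrg-3 and -4.22 for hrg-7, and all 5 passed.

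Members of the HRG-9 family, whose proteins are known to release heme from storage sites, differed less. hrg-9 had 6.26, 6.69 and 7.37 at 20 µM and 7.24, 7.67 and 8.49 at 4 µM, so that its groups overlapped, although each pair was lower at 20 µM. Its mean difference of -1.09 ± 0.19 did not pass (adjusted p 0.0823), nor did that of its other probe set, -0.73 ± 0.17 (adjusted p 0.168). The related hrg-10 had 7.04, 7.67 and 8.12 at 20 µM and 7.87, 8.27 and 8.75 at 4 µM, with a difference of -0.55 ± 0.18 (adjusted p 0.282). The 5 further hrg symbols on the array, looked at after their values were seen, held 0 members and 0 calls, with differences of 0.08 for hrg-11.2, -0.11 for hrg-11.3, 0.24 for hrg-11.4, 0.05 for hrg-13 and -0.24 for hrg-14.

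**Figure D1:**
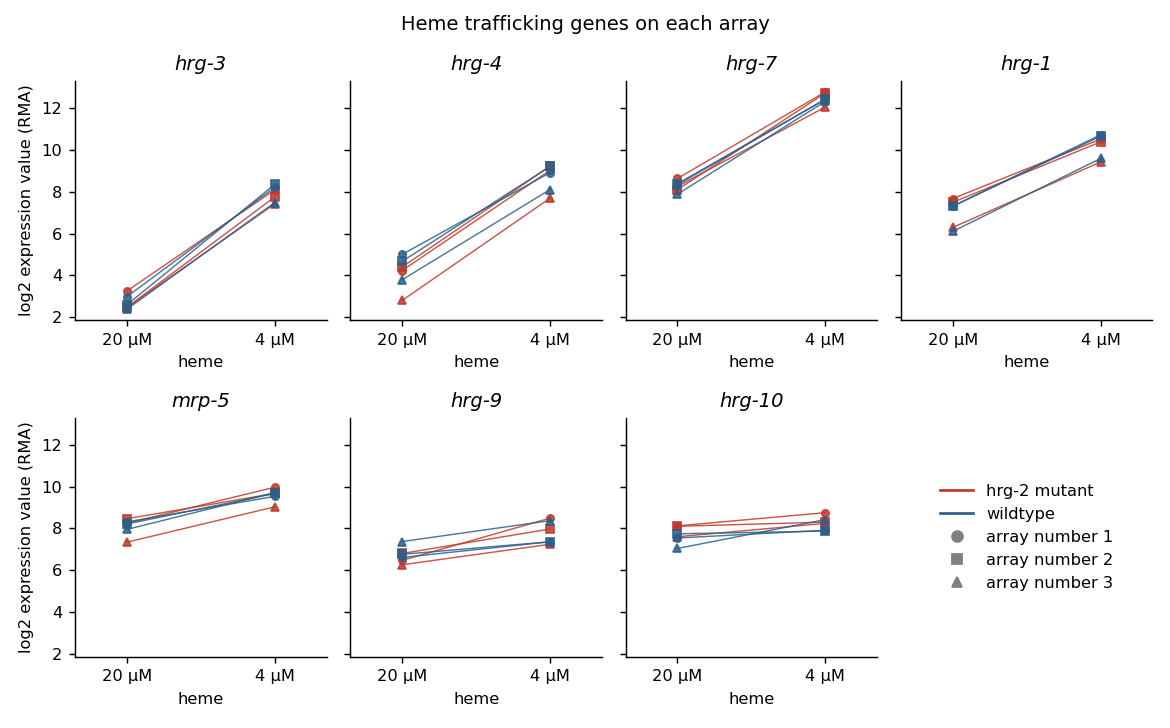
Deposited log2 RMA values (vertical axis) of the 7 measured heme trafficking genes at 20 µM and 4 µM heme (horizontal axis). Red lines join the mutant and blue lines the wildtype arrays of the same title number, which the marker shape gives. Every line stands higher at 4 µM, the mean gap ranges from 5.198 log2 units for hrg-3 to 0.55 for hrg-10, and for hrg-4 and hrg-1 the arrays numbered 3 (triangles) run below the others.

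Genes outside the heme trafficking list were also among the largest falls. The second largest fall was that of math-14, which encodes a MATH-domain protein. Its values were 2.61, 2.98 and 3.29 at 20 µM and 6.84, 8.00 and 8.54 at 4 µM, a difference of -4.86 ± 0.24 (28.9-fold, adjusted p 2.75e-05). The groups were more than 3 log2 units apart at their nearest arrays. R193.2 had 4.98, 5.58 and 6.28 at 20 µM and 8.28, 9.59 and 10.13 at 4 µM and fell by 3.74 ± 0.16 (13.4-fold, adjusted p 8.68e-06). A different probe set of R193.2 was lower in 5 of 6 pairs and did not pass, at -0.98 ± 0.27 (adjusted p 0.227). That probe set was dim, at 2.26 to 2.54 at 20 µM and 2.37 to 4.38 at 4 µM. Its values at 20 µM lay close to the lowest deposited values of the arrays, which limits its difference.

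The omega-class glutathione S-transferase gsto-1 was at 8.30, 8.99 and 9.61 at 20 µM and at 11.47, 11.84 and 12.30 at 4 µM, a 7.81-fold fall (-2.97 ± 0.17, adjusted p 6.83e-05). gst-17, another glutathione S-transferase, fell 3.98-fold (-1.99 ± 0.26, adjusted p 0.0226). Its call ended when mutant pair 1, mutant pair 2, wildtype pair 1 or wildtype pair 3 was left out, with adjusted p up to 0.135, and held from the arrays numbered 1 and 2 (0.0161). The cathepsin B-like cysteine protease gene cpr-8 had 7.46, 7.78 and 8.04 at 20 µM and 9.17, 10.43 and 10.82 at 4 µM and fell by 2.41 ± 0.19 (5.31-fold, adjusted p 9.72e-04). ctsa-4.1, a cathepsin A-like gene, had 9.20, 9.72 and 10.11 at 20 µM and 11.43, 11.82 and 12.16 at 4 µM. It fell by 2.09 ± 0.12 (4.25-fold, adjusted p 7.54e-05), with all 6 pairs between -2.23 and -1.85, the narrowest band of the 16 falls named here. The similarly named ctsa-4.2 had a difference of -0.998 and did not pass (adjusted p 0.0739).

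The UDP-glucuronosyltransferases ugt-17 and ugt-16, enzymes that attach sugars to small molecules, were among the 15 largest falls. ugt-17 fell by 2.101 ± 0.214 (4.29-fold, adjusted p 0.0053) and ugt-16 by 1.93 ± 0.28 (3.80-fold, adjusted p 0.0401). The arrays of ugt-17 did not overlap between the heme levels and those of ugt-16 did. The adjusted p of ugt-16 passed the threshold in 1 of the 6 fits that left out a pair, the one without mutant pair 3, and was 0.679 without the pairing and 0.00465 from arrays numbered 1 and 2. tag-10 fell by 2.04 ± 0.16 at its brighter probe set and by 2.00 ± 0.21 at the other (adjusted p 9.72e-04 and 0.00535, and 0.337 for the brighter one without the pairing). F43H9.4 fell by 2.36 ± 0.31 (adjusted p 0.0258) and F21F8.6 by 1.56 ± 0.13 (adjusted p 0.00125, and 0.241 without the pairing). The call of F43H9.4 ended without mutant pair 1, mutant pair 2, wildtype pair 1 or wildtype pair 2 (adjusted p up to 0.135).

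Outside the rule for named genes, and therefore picked after their values were seen, 5 named genes also fell, with differences of -1.51 for Y54G11A.7, -1.29 for H06A10.1, -1.24 for F32H5.1, -1.17 for F42G2.2 and -1.04 for the carboxylesterase-family gene cest-15 (adjusted p 0.0032 to 0.0244). A further fall belonged to a probe set with several symbols, which was given no gene name. Of the 16 falls that the rule names individually, heme genes included, 13 kept their call in all 6 fits that left out a pair, all 16 kept it from arrays numbered 1 and 2 (math-14 at -4.75, R193.2 at -3.91, gsto-1 at -2.80, cpr-8 at -2.69 and ctsa-4.1 at -2.02), and 12 kept it without the pairing.

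**Figure D2:**
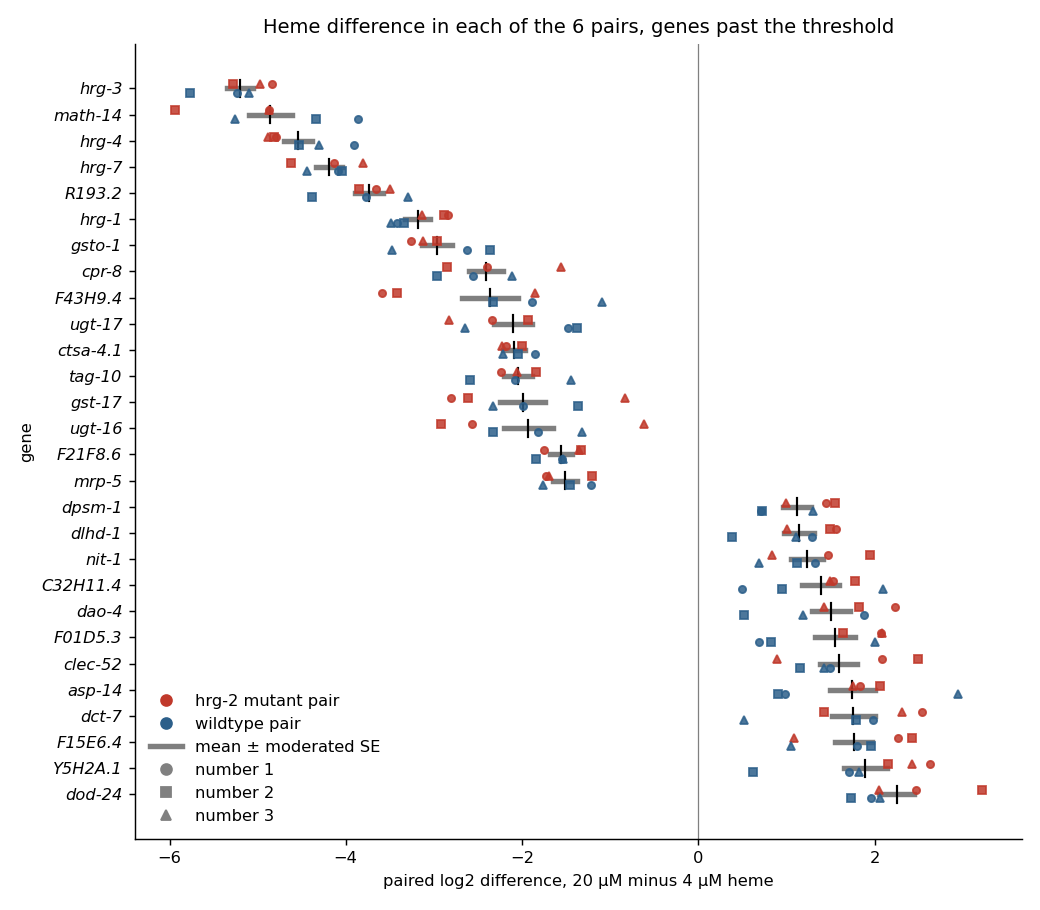
Paired log2 differences, 20 µM minus 4 µM (horizontal axis), for the 16 falls and 12 rises named by the rule (rows). Red points are mutant pairs, blue points wildtype pairs, shapes give the title number, and the black tick with its grey bar is the mean ± moderated SE. The falls reach -5.93 for math-14 in mutant pair 2, whereas no rise exceeds 3.22, that of dod-24 in mutant pair 2.

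The 13 probe sets that rose had smaller changes than the 27 that fell and a wider spread between arrays, whereas over all members the median size was larger for those higher (0.511) than for those lower (0.448). The largest rise was that of dod-24, a gene known to act downstream of the insulin-pathway factor DAF-16. It had 7.22, 9.18 and 9.80 at 20 µM and 5.17, 6.35 and 7.84 at 4 µM, and rose 4.75-fold (2.25 ± 0.20, adjusted p 0.00178). The groups overlapped, since the arrays numbered 3 at 20 µM (7.22 and 7.71) lay below the highest array at 4 µM. The groups of all 12 rises overlapped, and the range over the 6 arrays at 4 µM had a median of 2.92 log2 units for the 13 probe sets that rose, against 1.57 for the 27 that fell.

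The aspartyl protease gene asp-14 had 11.11, 12.06 and 12.22 at 20 µM and 8.16, 10.17 and 11.20 at 4 µM, and rose 3.36-fold (1.75 ± 0.25, adjusted p 0.0392). Its lowest array was wildtype number 3 at 4 µM, and that pair gave the largest difference, 2.95. clec-52, a C-type lectin gene, had 9.63, 10.48 and 11.13 at 20 µM and 7.14, 9.02 and 10.06 at 4 µM, a rise of 1.59 ± 0.21 (3.01-fold, adjusted p 0.0258). dao-4 had 5.55, 7.78 and 9.92 at 20 µM and 4.96, 5.72 and 8.74 at 4 µM, with the arrays numbered 3 the highest in each group, and rose by 1.51 ± 0.22 (adjusted p 0.0369). The remaining rises were those of Y5H2A.1 (1.89 ± 0.24), F15E6.4 (1.76 ± 0.21), dct-7 (1.76 ± 0.25), F01D5.3 (1.55 ± 0.22), C32H11.4 (1.39 ± 0.21), the nitrilase gene nit-1 (1.23 ± 0.18), dlhd-1 (1.14 ± 0.17) and dpsm-1 (1.12 ± 0.16), with adjusted p from 0.0141 to 0.0483. A probe set of F09C8.1, which is not that gene's brightest, also rose, by 1.89 ± 0.25 (adjusted p 0.0258).

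The calls of the rises depended on the pairs. Without mutant pair 1, and likewise without mutant pair 2, dod-24 alone kept its call among the 13. There were 6 of the 13 left without mutant pair 3, 3 without wildtype pair 1, 5 without wildtype pair 2 and 3 without wildtype pair 3. The adjusted p of dod-24 was 0.0135 or less in all 6 of these fits. From arrays numbered 1 and 2 alone 9 of the 12 named rises passed, with dod-24 at 2.35, asp-14 at 1.45 and clec-52 at 1.81, the exceptions being F01D5.3, C32H11.4 and dlhd-1 (adjusted p 0.0517 to 0.0548). Without the pairing 0 of the 12 passed, dod-24 included (0.651), and with the title number as an additive block 3 passed.

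Values of tissue marker lists stand beside these falls and rises. The 39 sperm genes measured held 0 members and 0 calls, with array medians of 8.63 to 11.67 at 20 µM and 6.94 to 11.64 at 4 µM. Their median paired differences were 2.70, 1.72 and -0.26 in mutant pairs 1, 2 and 3 and -0.19, 0.76 and -0.02 in wildtype pairs. The 13 hypodermis markers held 1 member and 0 calls (medians 0.84, 0.24 and 1.17 in mutant pairs and 0.05, -0.56 and 0.32 in wildtype pairs). Array medians of the 10 intestine markers, 0 of them members, were 9.56 to 10.30 at 20 µM and 9.13 to 10.29 at 4 µM. Their pair medians were -0.75, -0.37 and 0.14 in mutant pairs and -0.13, -0.13 and 0.23 in wildtype pairs. In the 4 pairs of arrays numbered 1 and 2, 6 of these 10 were lower throughout, 1 passed as lower, and the median was -0.41, and 1 hypodermis marker also passed as lower. The germ line, oocyte and vitellogenin lists also held 0 members. Over all genes 6.83% were members. From arrays numbered 1 and 2 alone, 16.3% of all genes were lower in all 4 pairs and 1.0% passed as lower. The part of tissue make-up in the falls and rises was not tested.

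Other gene groups were described by the same counts, read against 4.31% lower and 2.52% higher members over all genes. In the fit to arrays numbered 1 and 2 alone more genes passed, 1.0% lower and 0.607% higher of all 17138, and 16.3% were lower and 11.6% higher in all 4 pairs. Of 64 UDP-glucuronosyltransferase genes measured, 3 fell (ugt-17, ugt-16 and ugt-21) and 0 rose, and 14 were lower in all 6 pairs against 0 higher. The median of the family was -0.12. ugt-21 had 5.55, 6.80 and 7.03 at 20 µM and 6.39, 8.07 and 8.94 at 4 µM and fell by 1.29 ± 0.18 (adjusted p 0.0363, passing in 1 of 6 fits with a pair left out, and 0.932 without the pairing). ugt-12 missed the threshold (-1.16 ± 0.18, adjusted p 0.0502). From arrays numbered 1 and 2 there were 5 falls and 1 rise, with 23 genes lower and 9 higher in all 4 pairs.

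Of 255 nuclear hormone receptor genes, which encode transcription factors of a family much expanded in nematodes, 2 fell, 0 rose, 21 were lower in all pairs and 5 higher. The median was -0.10. nhr-115 had 4.50, 5.89 and 6.29 at 20 µM and 5.44, 6.78 and 7.50 at 4 µM and fell by 0.98 ± 0.12 (adjusted p 0.0167). nhr-202 fell by 1.29 ± 0.18 (adjusted p 0.0363). The call of nhr-115 held in 1 and that of nhr-202 in 0 of the 6 fits with a pair left out, and without the pairing they were at 0.942 and 0.891. Below them nhr-171 (-0.69, adjusted p 0.118) and nhr-66 (-0.55, adjusted p 0.164) did not pass. Arrays numbered 1 and 2 gave 4 falls and 3 rises among these receptors, with 50 lower and 25 higher in all 4 pairs. Among 45 glutathione S-transferases, 2 fell (gsto-1 and gst-17), 3 were lower in all pairs and 4 higher, and the family median was 0.14 (2 falls, 0 rises, 7 lower and 9 higher from arrays numbered 1 and 2). gst-9 (0.69, adjusted p 0.192) and gst-19 (0.59, adjusted p 0.207) were higher in all 6 pairs and did not pass. Of 51 ABC transporters, 1 fell, mrp-5, with 2 lower and 2 higher members and a median of -0.03, and from arrays numbered 1 and 2 there were 2 falls.

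The protease and lectin families held 1 call each. cpr-8 was the 1 fall and the 1 member among 8 cathepsin B-like genes, where cpr-6 (0.33), cpr-2 (0.31) and cpr-1 (0.11) did not pass and the median was 0.03. Of 15 aspartyl proteases other than hrg-7, asp-14 rose and 3 were higher in all pairs. asp-12 (0.55, adjusted p 0.367) and asp-4 (0.28, adjusted p 0.44) were the other 2 members, and asp-7, lower in 5 of 6 pairs, stood at -0.88 (adjusted p 0.207). The 220 C-type lectins held 1 rise, clec-52, with 5 lower and 10 higher members and a median of -0.01. clec-85 (1.33, adjusted p 0.0756), clec-60 (0.67, adjusted p 0.137) and clec-45 (-1.28, adjusted p 0.0823) had the same sign in all pairs and did not pass. With arrays numbered 1 and 2 alone 2 lectin genes fell and 2 rose, while the cathepsin B-like genes kept 1 fall and the aspartyl proteases 1 rise.

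Outside the heme trafficking list, the globins, cytochrome P450s, other heme proteins, iron and metal genes and respiratory chain genes held 0 calls over the 6 pairs. From arrays numbered 1 and 2 alone, 1 cytochrome P450 fell (cyp-33C9, adjusted p 0.0487) and 2 rose (cyp-37B1 at 0.0341 and cyp-36A1 at 0.0499), 1 iron and metal gene fell (fpn-1.1 at 0.0226), and the globins, other heme proteins and respiratory chain genes held 0 calls. Of 30 globins, heme proteins that bind oxygen, 4 were lower in all 6 pairs, 0 were higher, and the median was -0.17. These were glb-5 (-0.48 ± 0.13, adjusted p 0.226), glb-29 (-0.46), glb-18 (-0.37) and glb-14 (-0.48). Of 73 cytochrome P450s, heme-containing oxidases, 5 were lower and 4 higher in all pairs with a median of -0.07. cyp-33C9 (-0.68, adjusted p 0.137), cyp-37B1 (1.45, adjusted p 0.158) and cyp-32B1 (0.75, adjusted p 0.162) were among these. In a list of 28 other heme proteins, 2 were lower and 1 higher in all pairs. ctl-2, a peroxisomal catalase, had 10.26, 10.74 and 11.42 at 20 µM and 9.63, 9.83 and 10.72 at 4 µM (0.74 ± 0.14, adjusted p 0.118). The peroxidase genes skpo-3 (-0.88, adjusted p 0.129) and skpo-1 (-0.68, adjusted p 0.332) were lower in all pairs. Among 28 iron and metal genes, 0 were lower and 3 higher in all pairs, including the ferroportin-like fpn-1.2 (0.63, adjusted p 0.164) and the aconitase gene aco-1 (0.48, adjusted p 0.248). The 46 respiratory chain genes had a median of 0.12, with 0 lower and 1 higher member.

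Of the 5 cdr genes measured, which are related in sequence to hrg-2, 0 passed. cdr-1 had 4.55, 4.92 and 5.15 at 20 µM and 5.01, 5.83 and 7.00 at 4 µM, lower in all 6 pairs (-1.05 ± 0.24, adjusted p 0.164). cdr-4 (-0.27, adjusted p 0.436) was also lower in all pairs and cdr-6 (0.41, adjusted p 0.421) higher, while cdr-2 was lower in 5 of 6 (-0.56). Of 21 heat-shock protein genes, 4 were higher in all pairs, 1 was lower and 0 passed. hsp-16.2 had a large and uneven difference of 2.198 ± 0.530 (adjusted p 0.185), its pairs ranging from 0.08 to 4.50. From arrays numbered 1 and 2 alone it was 3.19 ± 0.35 (adjusted p 0.0147), and 4 of the 21 heat-shock genes passed there as higher, where 0.607% of all genes did. The 138 cuticle collagens held 13 members, all higher at 20 µM, and 0 calls. Arrays numbered 1 and 2 alone did not show this lean. There 4 collagens passed as lower and 0 as higher, where 1.0% and 0.607% of all genes did. In all 4 pairs 28 were lower and 17 higher, where 16.3% and 11.6% of all genes were, and the collagen median was -0.19. Over the 6 pairs the collagen median was -0.05, with pair medians of -0.59, -0.38 and 0.82 in mutant pairs and -0.12, 0.19 and 0.04 in wildtype pairs. col-138 (1.65), col-120 (0.71), col-79 (1.28) and col-49 (1.58) had adjusted p from 0.162 to 0.185. The remaining lists held 0 calls over the 6 pairs: 3 of 27 oxidative stress genes were lower and 1 higher in all pairs, as were 1 and 2 of 34 lysozyme and saposin-like genes, 0 and 2 of 41 lipid synthesis genes, 0 and 2 of 11 body wall muscle markers and 1 and 0 of 12 neuron markers. The 75 ribosomal protein, 33 proteasome and 18 hypodermal antimicrobial peptide genes held 0 members, although from arrays numbered 1 and 2 alone 26 of the 75 ribosomal protein genes were lower in all 4 pairs, with 0 calls. In that fit 1 oxidative stress gene fell and 1 lipid synthesis gene rose.

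**Figure D3:**
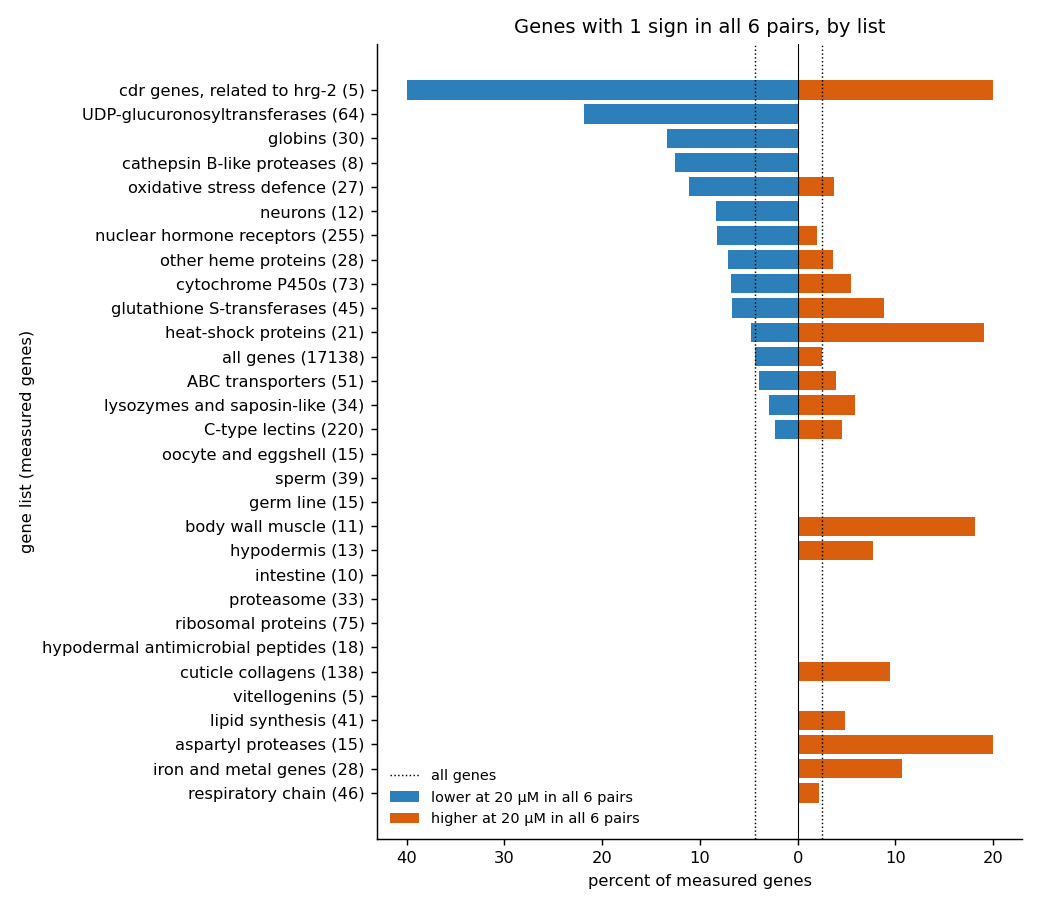
Percent of each list's measured genes (horizontal axis) that were lower (blue, left) or higher (orange, right) at 20 µM in all 6 pairs. Lists run down the page with the number of genes measured, dotted lines mark all genes (4.31% and 2.52%), and the heme trafficking list, with all 7 genes lower, is left off. UDP-glucuronosyltransferases lie to the left with 14 of 64 lower, and collagens to the right with 13 of 138 higher. Some smaller lists lie further out, such as the cdr genes (2 of 5 lower) and the heat-shock proteins (4 of 21 higher). From arrays numbered 1 and 2 alone 28 collagens were lower and 17 higher in all 4 pairs. Of all genes 16.3% were lower and 11.6% higher there.

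The mutant and wildtype responses were then set side by side. No probe set passed the test of the difference between the heme effects of the genotypes (0 of 22548, 0.0%, by limma), with 908 at an unadjusted p under 0.05. For the 27 falls the adjusted p of this difference was 0.988 to 0.999, and for the 13 rises 0.988 to 0.989. In the heme trafficking genes the difference was -4.83 ± 0.19 in mutants and -4.25 ± 0.19 in wildtype for hrg-4, so that mutant minus wildtype was -0.58 ± 0.27. For hrg-1 it was -2.95 ± 0.17 in mutants and -3.42 ± 0.17 in wildtype (0.46 ± 0.25). hrg-3 gave -5.03 ± 0.21 in mutants and -5.36 ± 0.21 in wildtype (0.33 ± 0.29). The genotypes were closest for hrg-7, at -4.19 ± 0.21 in each (0.01 ± 0.30), and for mrp-5, at -1.55 ± 0.20 in mutants and -1.48 ± 0.20 in wildtype (-0.06 ± 0.29). hrg-9 stood at -1.39 ± 0.24 in mutants and -0.78 ± 0.24 in wildtype (-0.61 ± 0.34). That none of these differences passed does not show that the genotypes respond alike.

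The mutant value was the larger in size for 18 of the 27 falls and for 13 of the 13 rises, while among all members it was larger for 72.5% of the 873 lower and 76.9% of the 616 higher. The same share over all 22548 probe sets was not computed, so these counts have no background to be read against. By a different measure, an unadjusted p under 0.05 by limma, 3152 of all probe sets stood out in mutants and 764 in wildtype. F43H9.4 differed by -2.96 ± 0.37 in mutants and -1.77 ± 0.37 in wildtype, and Y5H2A.1 by 2.40 ± 0.26 in mutants and 1.38 ± 0.26 in wildtype. The unadjusted p of the difference between genotypes was 0.0258 for Y5H2A.1, and it was under 0.05 for 1 of the 27 falls and 2 of the 13 rises. Tested within a genotype, 14 probe sets fell and 7 rose in mutants, and 11 fell and 0 rose in wildtype. Of these, 17 in mutants and 10 in wildtype were among the 40. Across all 22548 probe sets the mean heme differences of mutants and wildtype correlated at r = 0.472 (Spearman's rho 0.345), and 59.4% had the same sign. The count between genotypes changed with the pairs used. Without mutant pair 3, 366 probe sets passed, 29 with the mutant difference lower and 337 with it higher, and 236 passed from arrays numbered 1 and 2 alone. Without wildtype pair 1 it was 1. None of the 40 was among them (0 in each of these 3 fits).

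**Figure D4:**
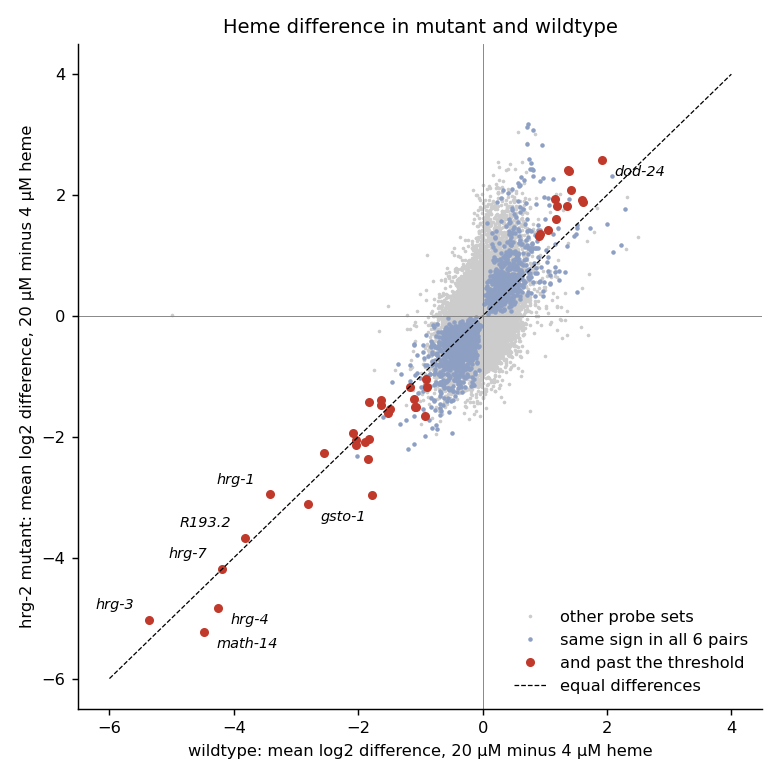
Mean log2 difference, 20 µM minus 4 µM, in mutants (vertical axis) and wildtype (horizontal axis) for 22548 probe sets, with members in blue and the 40 that passed in red; the dashed line marks equal differences. The falls lie on both sides of the line, 18 of the 27 with the larger fall in mutants, all 13 rises lie above it, and the lone grey point at the far left is a probe set with no symbol in the annotation used (0.0146 in mutants and -4.998 in wildtype, adjusted p of the difference 0.393).

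Membership turned on the weakest of 6 pairs, so that sizes at the edge of the rule were small or uneven. Just inside was zyg-9, with a mean difference of -0.20 and a pair only 3e-05 log2 units below 0. Just outside were calu-1, with a mean of 1.00 and 1 wildtype pair at -0.02, and ins-23, with a mean of -0.91 and 1 wildtype pair at 0.002.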

How the data were processed

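Each probe set has 1 deposited log2 value per array. Per the submitters' processing notes, the authors ran RMA (background subtraction, normalization between arrays, summary over probes) with Partek 6.5. Its settings are not stated in the labels, and detection calls were not used. Of 22625 probe sets, 77 controls were left out. Of the rest, 20810 had 1 gene symbol in the platform annotation, 843 several and 895 none; 20701 matched RefSeq (WBcel235), which changed 0 symbols.

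Paired differences were tested two-sided with limma's lmFit and eBayes (limma 3.58.1, R 4.3.3; 5 residual and 4.19 prior degrees of freedom), and the difference between genotypes on the same pairs (4 and 3.97). Adjusted p-values are Benjamini-Hochberg over 22548 probe sets, threshold 0.05. The scripts were tested on simulated data. The pairing by title number was part of the rule for the shared response. Deviations from group means of same-numbered arrays at 20 and 4 µM correlated at 0.255, 0.636 and 0.609 in mutants. In wildtype the values were 0.517, 0.789 and 0.817. These values cannot show that equal numbers belong together, since an array number that stands apart in every group raises them too. Number 1 minus number 2, which leaves that array number out, correlated at 0.065 in mutants and 0.452 in wildtype.

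Named are all measured heme trafficking genes, up to 15 largest falls and rises that passed with the same sign in 6 pairs, and up to 4 members of smallest p per list described, at the probe set of highest mean. Members and lists were chosen with earlier results of these data known. Alternatives covered the pairing, scaling, a filter on dim probe sets, array weights, the prior and pairs left out. Sequences and coordinates were not used here.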

Additional observations from a re-analysis of the deposited data

How the results depend on the processing

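The 5 heme trafficking falls passed in every fit that left out 1 pair and from arrays numbered 1 and 2 alone. Without the pairing 4 passed, all but mrp-5. Among probe sets brighter than the median, 4 of the 5 were tested, all but hrg-3, and these 4 passed, mrp-5 included. Of the 40 calls, 40 remained with median centring (47 in all), 34 with repeated quantile normalization (34), 40 with a trend and robust prior (60), 36 of 36 tested among probe sets above the median mean (42), and 25 with the title number as an additive replicate block (35). With no replicate block 15 passed, all lower, 14 of them members, and 13 of the 40 remained. Array weights gave 148 calls, 132 of them members, with 39 of the 40 kept. Leaving out 1 pair gave 18 to 51 calls, all with the same sign in the pairs used, 1898 to 3409 probe sets of the same sign and 0 to 366 calls between genotypes. Arrays numbered 1 and 2 alone gave 333 calls, 6018 probe sets of the same sign in 4 pairs and 236 calls between genotypes. Above the median mean 953 probe sets had the same sign, of 11274 tested. Fewer pairs make the same sign easier to reach by construction; the cause of the other shifts was not tested. No direction of a named gene was reversed. Low signals near the bottom of the array range limit the folds of hrg-3, math-14 and gst-17. The same holds for hrg-4 on its lowest array at 20 µM (2.80, mutant number 3).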

Other observations

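Some of the genes that passed lie near each other in the gene order of WBcel235. Of 174 measured neighbours up to 3 steps from the 34 genes that passed and have a position, 23 were members of either sign. These counts include genes that neighbour more than 1 of the 34. They also include F15E6.4, dct-7, gst-17 and tag-10, which passed themselves and are members by that selection. Over all genes 6.83% were members, but the 23 of 174 cannot be read against this share for that reason. Whether genes that passed lie together more often than others was not tested. F15E6.4 and dct-7 are direct neighbours, and both rose (1.76 each). gst-17 and tag-10 have 1 protein-coding gene between them and both fell (-1.99 and -2.04), while gst-19, on the other side of gst-17, was higher in all 6 pairs without passing (0.59 ± 0.15, adjusted p 0.207). C32H11.4 and dod-24, which both rose, have 6 protein-coding genes between them. Y5H2A.1, which rose, and nhr-115, which fell, have 7 between them.

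The nearest neighbours of the largest falls differed in size. math-15, next to math-14, was lower in all 6 pairs by a mean of 1.61 ± 0.38 and did not pass (adjusted p 0.178). The cathepsin B-like gene cpr-5, next to cpr-8, stood at -0.04 ± 0.13. Beside F01D5.3, which rose, F01D5.2 was at 1.21 ± 0.25 (adjusted p 0.138), higher in all pairs.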
